A study of Homo sapiens with 12 samples.

Results

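The YAP-TEAD genes described here are transcriptional targets of the YAP/TAZ coactivators and components of the Hippo pathway that controls them. They were measured by RNA-seq in HepG2 and LM3 cells, which the study used as human hepatocellular carcinoma lines. They were chosen by name as YAP/TAZ, TEAD and well known target genes, with their measured values in these libraries already known. The rule named 10 genes, namely CYR61, CTGF, ANKRD1, AMOTL1, AMOTL2, AJUBA, LATS2, YAP1, WWTR1 and TEAD1. Of these, 8 were among the 8842 genes listed for every library, and the values of AMOTL1 and WWTR1 were not analysed here. All 8 passed the filter on low values, which asked for 3 or more libraries of a comparison at 1 or higher, although ANKRD1 in LM3 passed it mainly through the siFASRL libraries.

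The study compared cells transfected with an siRNA against the long noncoding RNA FASRL (siFASRL) with cells given a negative control siRNA (siNC), using Lipofectamine RNAiMAX in every group, and RNA was harvested 48 h later. Each of the 4 groups, HepG2 siNC, HepG2 siFASRL, LM3 siNC and LM3 siFASRL, had 3 replicate libraries, 12 in all, and the comparison asks which transcripts differ when FASRL is depleted. The values are normalized RSEM values, an estimate of transcript abundance per gene, and whether they are FPKM or TPM is not stated, so they are called values below. They are not read counts, so the depth behind each value is unknown, and the 3 replicates of a group give the precision. FASRL itself was not analysed here, so the depletion was not checked in these libraries. The labels do not say whether replicates were separate cultures, so p-values measure the spread between these libraries, which may be technical.

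The listed genes are a selected subset of the transcriptome. When genes averaging 5 or more were considered, small decreases, with log2 ratios from -0.20 up to -0.04, were found for 5 of 6367 after knockdown in HepG2 (0.0785%) and for 578 of 5937 in LM3 (9.74%), so shares of changed genes below refer to listed genes only. Values summed over the listed genes were 333193 to 338379 in HepG2 siNC, 347211 to 355094 in HepG2 siFASRL, 316534 to 321859 in LM3 siNC and 346884 to 348573 in LM3 siFASRL. The siFASRL sums thus lay above the siNC sums in both lines.

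Markers were used to check the lines. Of 9 hepatocyte genes, 8 were listed, and their summed values in HepG2 siNC were 4049, 3974 and 3664, led by SERPINA1 (1393 ± 71.3, SD, n = 3) and ALB (815 ± 31.7). In HepG2 siFASRL the summed values were 1827, 1735 and 1783, below every siNC library. LM3 carried almost none of this program, with sums of 14.6, 17.8 and 16.98 under siNC and 7.25, 7.69 and 6.24 under siFASRL, nearly all of it from HNF4A (14.3 ± 0.095 under siNC), with ALB at 0.36 ± 0.282 and TTR listed at 0 in every LM3 siFASRL library. Apart from HNF4A, the hepatocyte markers were thus near 0 in LM3, and the label of that line as a liver cancer line could not be checked with them.

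Of 6 fibroblast and stellate cell markers, 5 were listed, and their sums were 70.6, 70.9 and 72.2 in HepG2 siNC, where COL3A1 led at 31.4 ± 1.05, and 35.4, 32.3 and 33.3 in HepG2 siFASRL. The LM3 sums were 15.1, 14.3 and 13.2 under siNC, led by COL1A1 at 9.95 ± 1.05, and 4.69, 5.86 and 5.25 under siFASRL, with DCN and LUM listed at 0 there. Of the endothelial markers 1 of 4 was listed, VWF, at no more than 0.35 in any library. Of the immune markers 1 of 3 was listed, CD68, at 42.1, 36.7 and 44.5 in HepG2 siNC, 54.3, 41.4 and 38.9 in HepG2 siFASRL, 16.8, 13.4 and 14.5 in LM3 siNC, and 17.7, 17.3 and 17.6 in LM3 siFASRL. The hepatocyte and fibroblast sums moved with the knockdown in both lines, and their part in the results below was not tested.

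The Hippo pathway is a kinase cascade in which MST kinases activate the LATS kinases, which phosphorylate YAP and its paralog TAZ so that they are held in the cytoplasm or degraded. When LATS activity is low, as in cells under mechanical tension or at low density, YAP and TAZ enter the nucleus and bind TEAD transcription factors, since they cannot bind DNA on their own. Their targets include secreted matricellular proteins such as CYR61 and CTGF and several inhibitors of YAP and TAZ, among them LATS2 and AMOTL2, which act as negative feedback. In liver, YAP is known for its control of organ size and of biliary fate, and its activity is often raised in hepatocellular carcinoma. Activity depends largely on phosphorylation and location of the proteins, which RNA-seq does not measure.

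The promoters of the genes were searched for the letters to which TEAD factors bind. The motif was CATTCC, read on both strands and so also as GGAATG, and AP-1, a factor that often occupies the same elements, was searched as TGANTCA, which reads the same on both strands; neither motif contains the other. Windows were the 250 bases before each RefSeq transcription start on GRCh38.p14. TEAD letters occurred in 4175 of 35116 promoters of the RefSeq table (11.9%), with 2 or more matches in 330 (0.940%), and in 1048 of 10467 promoters of listed genes (10.0%). AP-1 letters occurred in 6.57% of all promoters and 4.74% of those of listed genes.

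CTGF held 3 TEAD matches, which began 169, 104 and 95 bases before the start. ANKRD1 held 2, at 220 and 128 bases, with an AP-1 match at 195 bases. YAP1 held 1 at 162 bases, AMOTL2 1 at 69 bases before its second start, and AJUBA 1 at 59 bases before its second start. LATS2 had no match in this window, which says only that these letters are not in it. The windows of AMOTL1 and WWTR1, whose values were not analysed here, likewise held no TEAD or AP-1 letters. No entry was used for CYR61 and TEAD1. Printed below, 5′ to 3′ on the strand of the gene with matches in capitals, are CTGF, chr6:131951374-131951622 (minus strand), as the promoter with the most TEAD matches, ANKRD1, chr10:90921276-90921337 (minus strand), for a TEAD and an AP-1 match close together, YAP1, chr11:102110197-102110446 (plus strand), as the coactivator itself, and LATS2, chr13:21061587-21061836 (minus strand), for contrast. The CTGF and ANKRD1 windows were shortened to leave out bases that GENCODE v29 annotates as UTR, where the second ANKRD1 match and those of AMOTL2 and AJUBA lie, except for 1 base at the end of the ANKRD1 stretch that completes the AP-1 match.
CTGF: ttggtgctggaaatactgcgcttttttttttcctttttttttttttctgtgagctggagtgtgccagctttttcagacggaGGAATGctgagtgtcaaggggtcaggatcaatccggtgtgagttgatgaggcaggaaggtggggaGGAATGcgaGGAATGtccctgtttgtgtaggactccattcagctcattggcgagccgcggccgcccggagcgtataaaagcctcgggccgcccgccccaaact
ANKRD1: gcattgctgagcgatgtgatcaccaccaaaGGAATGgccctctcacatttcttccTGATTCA
YAP1: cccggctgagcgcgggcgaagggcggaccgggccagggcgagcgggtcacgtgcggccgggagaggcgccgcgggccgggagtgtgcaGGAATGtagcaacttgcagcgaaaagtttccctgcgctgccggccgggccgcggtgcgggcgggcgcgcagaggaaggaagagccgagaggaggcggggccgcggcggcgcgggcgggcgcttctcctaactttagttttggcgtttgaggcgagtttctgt
LATS2: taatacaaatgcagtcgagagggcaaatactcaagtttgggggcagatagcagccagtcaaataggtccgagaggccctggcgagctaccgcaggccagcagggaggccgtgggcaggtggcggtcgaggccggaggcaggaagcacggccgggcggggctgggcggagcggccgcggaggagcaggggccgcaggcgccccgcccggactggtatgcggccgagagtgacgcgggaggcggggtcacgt

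**Figure D1:**
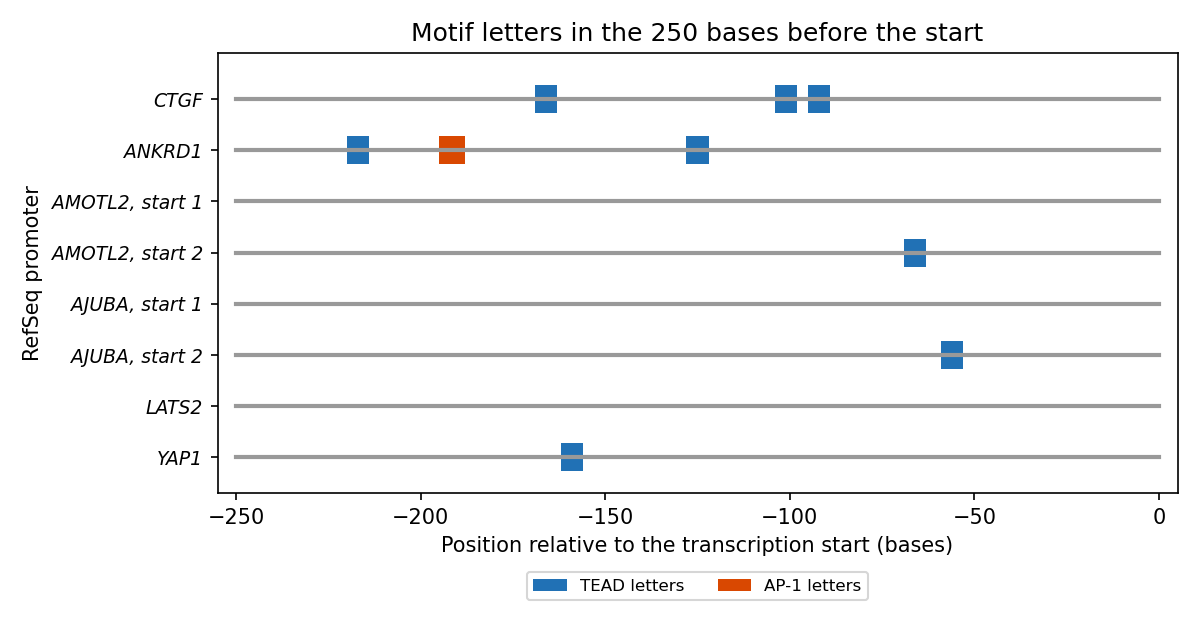
Position of TEAD letters (blue) and AP-1 letters (orange) in the 250 bases before each RefSeq start, in bases relative to the start. CTGF carried 3 TEAD matches and ANKRD1 carried 2 with an AP-1 match, while LATS2 and the first starts of AMOTL2 and AJUBA carried none.

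CYR61 (CCN1, gene ID 3491, chromosome 1, 85580761 to 85583950) encodes a secreted matricellular protein that binds integrins and is among the most used readouts of YAP activity. Its values in HepG2 were 24.6, 24.0 and 24.9 in the siNC libraries and 214, 209 and 211 in the siFASRL libraries. In LM3 they were 16.6, 15.9 and 19.2 under siNC and 90.7, 83.8 and 87.6 under siFASRL. The siFASRL libraries were far above siNC in both lines, and the groups ordered HepG2 siFASRL, LM3 siFASRL, HepG2 siNC and LM3 siNC from high to low with no overlap between neighbors. The ratio of the means was 8.63 in HepG2 and 5.08 in LM3. On the log2(value + 1) scale, used for every log2 difference below and compressing changes of low values, the difference was 3.06 (SE 0.0516) in HepG2 and 2.28 (SE 0.0740) in LM3. CYR61 ranked 3 of 8144 genes by increase in HepG2 and 2 of 7483 in LM3. In bulk samples such as these, a change in the number of expressing cells and a change in RNA per cell cannot be told apart.

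Because the genes were chosen with the knockdown results known, their differences between siFASRL and siNC are a description, and no p-value is given for them. For orientation, a log2 difference of at least 1 at an adjusted p under 0.05 was reached upward by 3.61% of the genes tested in HepG2 and 1.42% in LM3, and downward by 6.79% and 6.20%. Of the 8 genes, 1 (CYR61) had a log2 difference of at least 1 in HepG2 and 2 (CYR61 and ANKRD1) had one in LM3, all upward. AMOTL2 in HepG2 (0.98) reached 1.02 without HepG2 siFASRL replicate 1, 1.05 without HepG2 siNC replicate 2 and 1.01 with a pseudocount of 0.1. CTGF in LM3 (0.93) reached 1.04 with median-of-ratios scaling or a pseudocount of 0.1, and 1.12 with quantile normalization. These counts thus depend on the processing. Among genes past that threshold 65.3% were lower in HepG2 (52.5% after quantile normalization) and 81.4% in LM3 (68.9% after median-of-ratios scaling and 61.5% after quantile normalization). The siFASRL and siNC libraries did not overlap, with siFASRL higher, for 5 of 8 genes in HepG2 (62.5%) and 7 of 8 in LM3 (87.5%), where 45.4% and 35.6% of all genes tested did so. They were lower without overlap for 2 genes in HepG2 (CTGF and YAP1) and 1 in LM3 (YAP1), against 44.2% and 44.6% of all genes tested. Most listed genes therefore separated the groups in either direction, and nothing is read from these counts.

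CTGF (CCN2, gene ID 1490, chromosome 6, 131948176 to 131951372), the closest relative of CYR61 among the targets and a profibrotic matricellular protein, went in opposite directions in the lines. Its values in HepG2 were 29.25, 35.2 and 24.35 under siNC and 15.6, 18.7 and 19.1 under siFASRL. In LM3 they were 4.58, 6.04 and 5.99 under siNC and 11.05, 11.7 and 11.45 under siFASRL. Every HepG2 siFASRL library was below every HepG2 siNC library, while in LM3 every siFASRL library was above siNC, and no neighboring groups overlapped in the order HepG2 siNC, HepG2 siFASRL, LM3 siFASRL and LM3 siNC. The lines thus lay closer together after knockdown than before. The log2 difference was -0.69 (SE 0.124) in HepG2 and 0.93 (SE 0.0900) in LM3, with ratios of means of 0.601 and 2.06. The siNC libraries of HepG2 were the most spread of the 4 groups (SD 5.42 at a mean of 29.6). GENCODE v29 places exons of AL133346.1 on the other strand over 8.34% of the CTGF exon bases, and the strand use of the counting is not stated.

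ANKRD1 (gene ID 27063, chromosome 10, 90912096 to 90921087) encodes a nuclear ankyrin repeat protein and is a direct YAP target in epithelial cells. In HepG2 its values were 42.9, 41.8 and 35.4 under siNC and 40.9, 41.8 and 41.8 under siFASRL. In LM3 they were 0.80, 0.71 and 1.04 under siNC and 4.12, 3.89 and 3.66 under siFASRL. The HepG2 groups overlapped at a high level, whereas the LM3 groups were separate at a low one. The log2 difference was 0.05 (SE 0.0748) in HepG2, within its error, and became -0.05 with quantile normalization and -0.03 without HepG2 siNC replicate 3. It was 1.41 (SE 0.07425) in LM3, where the ratio of means was 4.58.

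**Figure D2:**
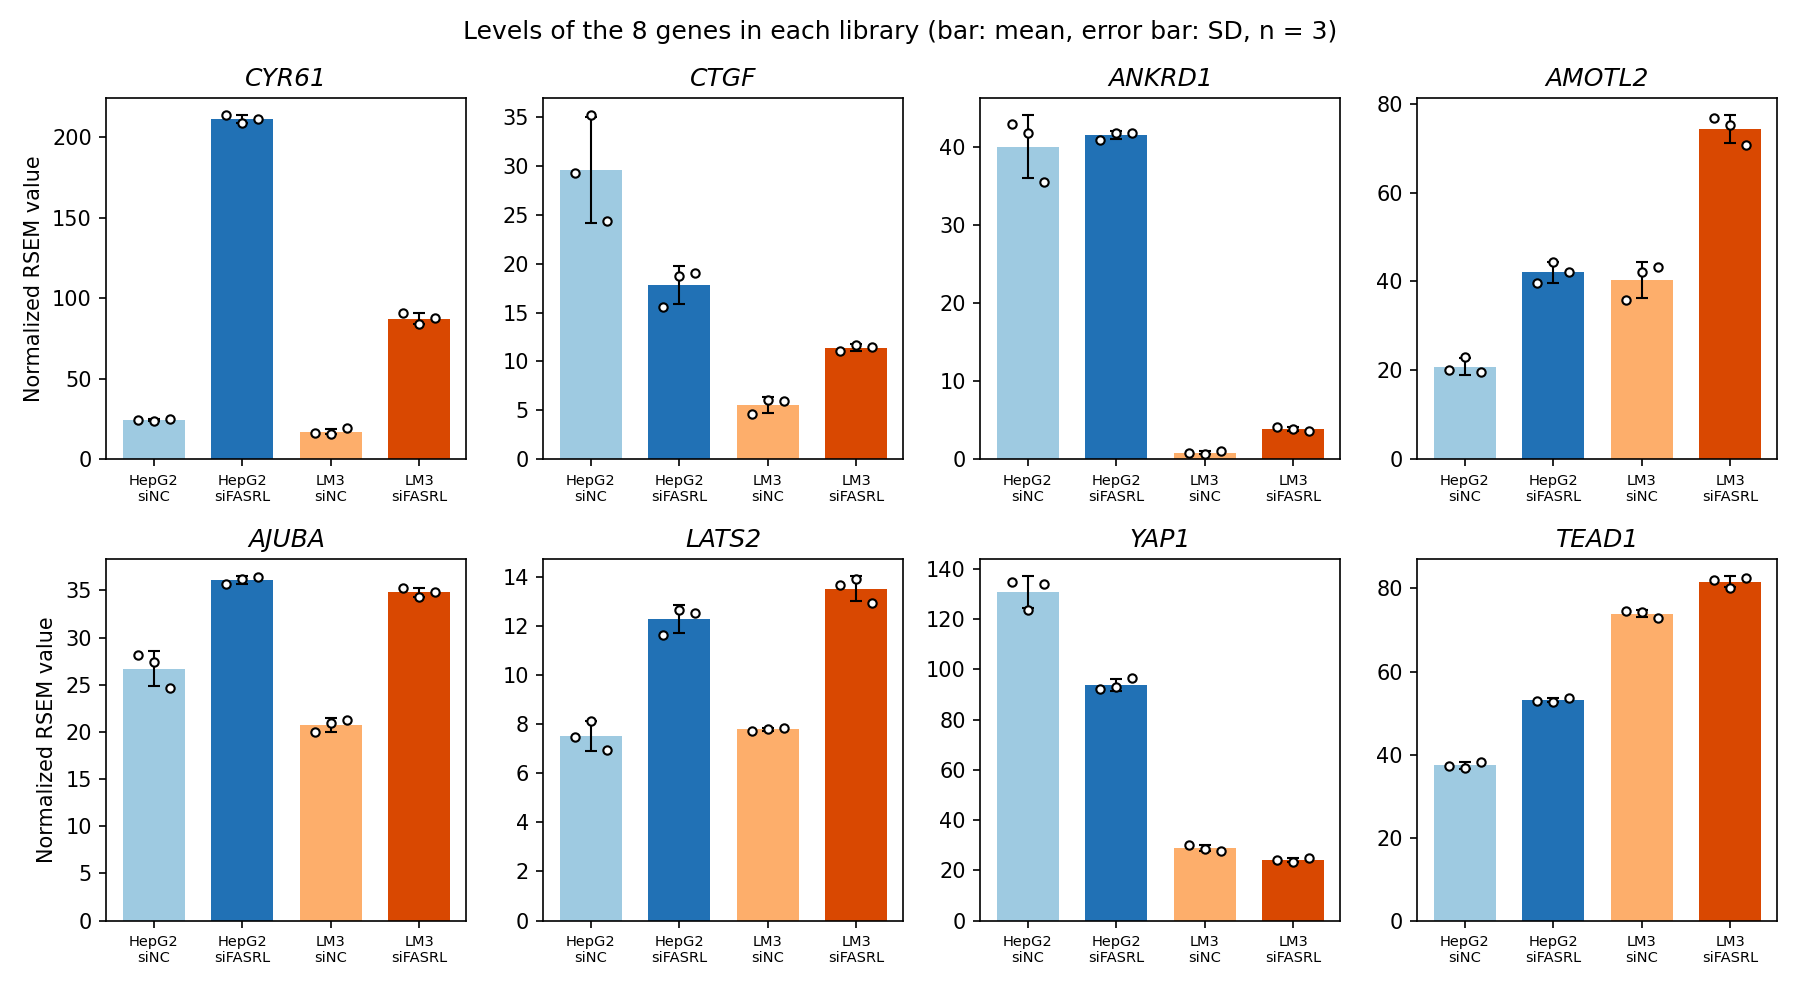
Normalized RSEM value (linear axis from 0) of each gene in the 12 libraries, with points for libraries, bars for group means and error bars for the SD (n = 3). CYR61 had means of 211 in HepG2 and 87.4 in LM3 under siFASRL, CTGF differed in opposite directions, and YAP1 was lower under siFASRL in both lines.

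AMOTL2, AJUBA and LATS2 restrain YAP or tune its control, and they are also induced by YAP. AMOTL2 (gene ID 51421, chromosome 3, 134355345 to 134375417) belongs to the angiomotin family, which binds YAP at tight junctions and keeps it out of the nucleus. Its HepG2 values were 20.0, 22.9 and 19.5 under siNC and 39.6, 44.4 and 42.1 under siFASRL, and its LM3 values 35.8, 42.1 and 43.2 under siNC and 76.8, 75.15 and 70.7 under siFASRL. The siFASRL libraries were higher in both lines, and HepG2 under siFASRL overlapped LM3 under siNC. Its log2 difference was 0.98 (SE 0.0743) in HepG2 and 0.87 (SE 0.0769) in LM3.

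AJUBA (gene ID 84962, chromosome 14, 22971177 to 22982551) encodes a LIM protein that recruits LATS kinases to cell junctions under tension and thereby limits them. Its values were 28.1, 27.4 and 24.6 in HepG2 siNC, 35.65, 36.3 and 36.4 in HepG2 siFASRL, 19.9, 21.0 and 21.3 in LM3 siNC, and 35.3, 34.3 and 34.9 in LM3 siFASRL. The siFASRL groups lay close together in the lines, though without overlap, from different siNC levels. This gave a log2 difference of 0.42 (SE 0.0625) in HepG2 and 0.72 (SE 0.04965) in LM3.

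LATS2 (gene ID 26524, chromosome 13, 20973036 to 21061586) encodes a kinase that phosphorylates YAP and TAZ. Its values were 7.49, 8.14 and 6.95 in HepG2 siNC, 11.6, 12.7 and 12.5 in HepG2 siFASRL, 7.74, 7.81 and 7.85 in LM3 siNC, and 13.7, 13.9 and 12.96 in LM3 siFASRL. The siNC groups overlapped between lines, and siFASRL was above both. The log2 difference was 0.64 (SE 0.0672) in HepG2 and 0.72 (SE 0.04955) in LM3.

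YAP1 (gene ID 10413, chromosome 11, 102110447 to 102233424) encodes the coactivator itself. Its HepG2 values were 135, 124 and 134 under siNC and 92.1, 93.1 and 96.5 under siFASRL, and its LM3 values 30.2, 28.6 and 27.6 under siNC and 24.1, 23.1 and 24.9 under siFASRL. Both siFASRL groups were below their siNC group, although most of the targets above were higher there. On the log2 scale it differed by -0.47 (SE 0.0581) in HepG2 and -0.25 (SE 0.0557) in LM3. Exons of AP000942.2 on the other strand cover 9.97% of the YAP1 exon bases in GENCODE v29.

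TEAD1 (gene ID 7003, chromosome 11, 12674421 to 12944737) encodes the DNA-binding partner through which YAP acts. Its values were 37.3, 36.7 and 38.1 in HepG2 siNC, 52.8, 52.7 and 53.6 in HepG2 siFASRL, 74.5, 74.2 and 73.0 in LM3 siNC, and 82.0, 80.1 and 82.6 in LM3 siFASRL. It was higher under siFASRL in both lines, and every LM3 library was above every HepG2 library. The log2 difference was 0.49 (SE 0.0515) in HepG2 and 0.14 (SE 0.0464) in LM3. The partner genes of the YAP-TEAD complex thus differed in opposite directions at the RNA level in each line.

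The median log2 difference of all genes tested was 0.10 in HepG2 and -0.06 in LM3. In LM3 it depended on the scaling, and became 0.05 when libraries were scaled by the median of ratios. Relative to the median of all genes, the LM3 differences were 2.34 for CYR61, 0.99 for CTGF, 1.47 for ANKRD1, 0.93 for AMOTL2, 0.78 for both AJUBA and LATS2, 0.20 for TEAD1 and -0.19 for YAP1. After median-of-ratios scaling these relative differences were between -0.18 (YAP1) and 2.35 (CYR61). YAP1 and TEAD1 lay nearest the median, and after quantile normalization they were at -0.30 and 0.02 relative to it.

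**Figure D3:**
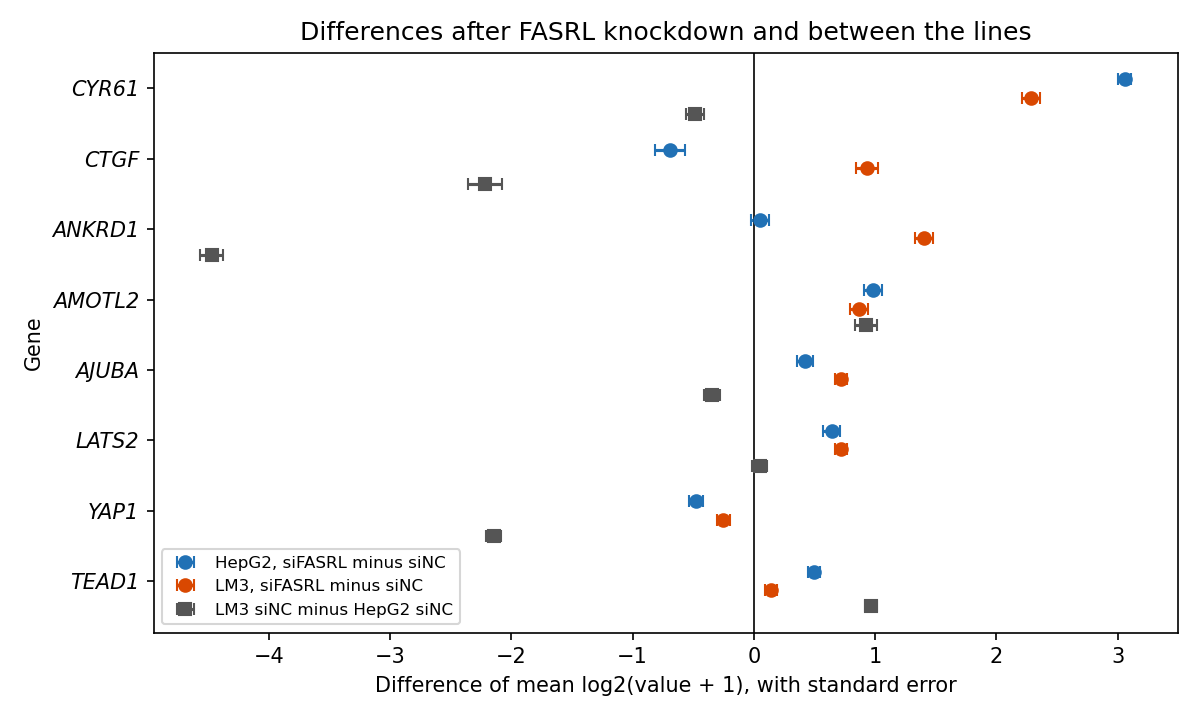
Differences of mean log2(value + 1) with standard errors for each gene, after knockdown in HepG2 (blue) and LM3 (orange) and between the siNC groups (gray squares, LM3 minus HepG2). CYR61 lies at 3.06 and 2.28, CTGF at -0.69 and 0.93, and the gray squares of CTGF, ANKRD1 and YAP1 lie at -2.22, -4.47 and -2.14.

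The differences between the knockdown effects, LM3 minus HepG2, were likewise not tested for these genes. They were 1.63 (SE 0.1725) for CTGF and 1.35 (SE 0.110) for ANKRD1, and -0.78 (SE 0.0880) for CYR61 and -0.35 (SE 0.0579) for TEAD1, where the siFASRL excess was larger in HepG2. With a pseudocount of 0.1 ANKRD1 was at 2.03 and CTGF at 1.76, so their order depends on it, and the LM3 difference of ANKRD1 alone went from 1.41 to 2.08. AJUBA (0.30), YAP1 (0.22), AMOTL2 (-0.12) and LATS2 (0.08) differed less. CTGF and ANKRD1, both far lower in LM3 siNC than in HepG2 siNC, were higher after knockdown in LM3 and not in HepG2. YAP1, also far lower in LM3 siNC, was lower after knockdown in both lines.

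The siNC groups of the lines were compared as a description as well, since the genes were chosen with these values known, and no p-value is given for them. In LM3 siNC all 3 libraries were below all 3 HepG2 siNC libraries for 5 of the 8 genes and above them for 2, where 41.4% of the 8176 genes tested were lower without overlap and 40.9% higher. The log2 difference was -1 or lower for 3 of the 8, CTGF, ANKRD1 and YAP1. Of all genes tested, 15.6% were lower and 7.74% higher by at least that much at an adjusted p under 0.05 in limma. The share of lower genes among those past that threshold was 66.9%, and 51.3% after quantile normalization, which moved the median of all genes from 0.00 to 0.15. Without 1 HepG2 siNC library, when fewer genes pass the filter, the lower genes went from 1278 to between 702 and 719, and their share to between 52.4% and 53%.

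YAP1 was lower in LM3 siNC, at 28.8 ± 1.31 against 130.8 ± 6.22 in HepG2 siNC (SD, n = 3), a ratio of 0.220, with a log2 difference of -2.14 (SE 0.0617). ANKRD1 had the largest gap of the 8 genes, at 0.85 ± 0.171 in LM3 siNC and 40.0 ± 4.02 in HepG2 siNC (log2 difference -4.47, SE 0.0935), and passed the filter here through HepG2. CTGF differed by -2.22 (SE 0.139). In each of these genes all 3 LM3 libraries were below all 3 HepG2 libraries.

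The other readouts followed a different order. CYR61 was lower in LM3 by a smaller margin (-0.49, SE 0.0743), as was AJUBA (-0.35, SE 0.0656), again without overlap of the libraries. AMOTL2 (0.92, SE 0.0904) and TEAD1 (0.97, SE 0.0501) were higher in all 3 LM3 libraries. LATS2 overlapped between the lines (0.05, SE 0.0636). After quantile normalization its difference was 0.205, or 0.06 above the median of all genes. LM3 thus had less YAP1 mRNA and more TEAD1 mRNA than HepG2, with some targets lower and AMOTL2 higher.

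Paralogs of these genes were looked up whether or not they changed. TEAD4, another TEAD factor, had values of 21.6, 25.5 and 23.0 in HepG2 siNC, 37.5, 37.05 and 37.2 in HepG2 siFASRL, 20.1, 24.5 and 23.0 in LM3 siNC, and 40.1, 35.97 and 35.5 in LM3 siFASRL. It rose without overlap in both lines, by 0.65 in HepG2 (SE 0.0669, limma adjusted p = 1.2e-05) and 0.70 in LM3 (SE 0.0811, limma adjusted p = 6.81e-05), and its siNC levels did not differ between lines at the threshold (-0.05, limma adjusted p = 0.601). LATS1, the sister kinase of LATS2, rose by 0.20 in HepG2 (limma adjusted p = 0.0186) and 0.32 in LM3 (limma adjusted p = 0.00302). Of all genes tested, 44.8% rose at an adjusted p under 0.05 in HepG2 and 33.9% in LM3. The median differences of all genes were 0.10 and -0.06, so a small rise such as that of LATS1 in HepG2 was common. AMOT had means of 0.453 in HepG2 siNC and 0.19 in HepG2 siFASRL, had a mean of 0.003 in LM3 siNC, was listed at 0 in LM3 siFASRL, and was too low to test. TEAD2, TEAD3, LIMD1 and WTIP were not analysed here.

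Further YAP/TAZ target genes from a list of 32, of which 24 were listed, were then counted. This list and those below were drawn up with earlier results of these data known, so their counts and p-values describe these genes and are not independent evidence. In HepG2, 21 of 24 tested rose at an adjusted p under 0.05 and 2 fell, DKK1 and ARHGEF17, beside 44.8% and 44.3% of all genes, and the list's median difference was 0.64 beside 0.10 for all genes. In LM3, 17 of 23 tested rose and 3 fell, beside 33.9% and 43.5% of all genes, with a median of 0.54 beside -0.06. Under both other scalings between 20 and 21 genes rose in HepG2 and 17 in LM3. Of the 23 tested in both lines, 16 rose in both (69.6%, beside 29.6% of 7349 genes) and 1 fell in both (beside 36%). The gene that fell was ARHGEF17, which did not pass in LM3 under either other scaling. The 3 that went opposite ways were DKK1, CCDC80 and PTPN14, as did 390 of the 7349 genes. ARHGEF17, CCDC80 and PTPN14 are named because these counts are small, after their values were seen.

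Past the threshold of 1 on the log2 scale, 9 of these targets rose and 1 fell in HepG2, and 5 rose in LM3. Of all genes tested, 3.61% rose and 6.79% fell past it in HepG2, and 1.42% rose and 6.2% fell in LM3. The receptor TNFRSF12A, which binds the cytokine TWEAK, rose by 1.47 in HepG2 (SE 0.1003, limma adjusted p = 9.35e-07) and 1.49 in LM3 (SE 0.109, limma adjusted p = 5.09e-06), without overlap of the libraries. FJX1 also passed in both lines, at 1.03 and 1.06 (limma adjusted p = 7.44e-05 and 4.81e-05). The kinase gene NUAK2 rose by 0.91 in HepG2 and 1.26 in LM3, and the effects differed by 0.35 (limma adjusted p = 0.00918 for the interaction of line and siRNA), which fell to 0.07 (limma adjusted p = 0.617) after quantile normalization.

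Several targets rose more in HepG2. F3, which encodes tissue factor, the initiator of coagulation, went from a mean of 5.67 ± 0.62 to 23.0 ± 0.747 in HepG2 and from 6.01 ± 0.522 to 7.65 ± 0.291 in LM3 (SD, n = 3), and the effects differed by -1.54 (limma adjusted p = 1.03e-07). NT5E, the ectoenzyme CD73 that makes adenosine, rose by 1.73 in HepG2 and 0.79 in LM3. FSTL1 (1.44 and 0.54), IGFBP3 (1.25 and 0.37), TGFB2 (1.23 and 0.65) and EDN1 (1.07 and 0.64), all secreted factors, followed the same order, and the effects differed in limma (adjusted p = 2.82e-07, 7.35e-06, 2.89e-05 and 0.00508). AREG, an EGF receptor ligand, rose by 1.85 in HepG2 (SE 0.0799, limma adjusted p = 7.97e-08), whereas its LM3 means of 0.347 and 0.287 were too low to test.

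DKK1, a secreted Wnt antagonist, fell from 75.9 ± 0.523 to 25.6 ± 1.22 in HepG2 and rose from 9.11 ± 0.374 to 13.1 ± 0.722 in LM3 (SD, n = 3). Its effects differed by 2.02 (SE 0.0757, limma adjusted p = 1.2e-09). DKK1 and CTGF thus had the same order of groups, high in HepG2 siNC, lower in HepG2 siFASRL, and lower still in both LM3 groups with siFASRL above siNC. Of the 23 tested in both lines the effect was lower in LM3 than in HepG2 for 10 and higher for 4, beside 27.5% and 15% of 7349 genes. Over all 8285 genes in the fit these shares were 27.2% and 19.5%, but a gene too low in 1 line can only have an effect near 0 there. Between the siNC groups 11 of 24 were higher in LM3 and 7 lower in limma, beside 40.4% and 40.6% of all genes tested. The lower genes include AREG (LM3 siNC mean 0.347), which passed the filter through HepG2 only and could only come out lower.

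**Figure D4:**
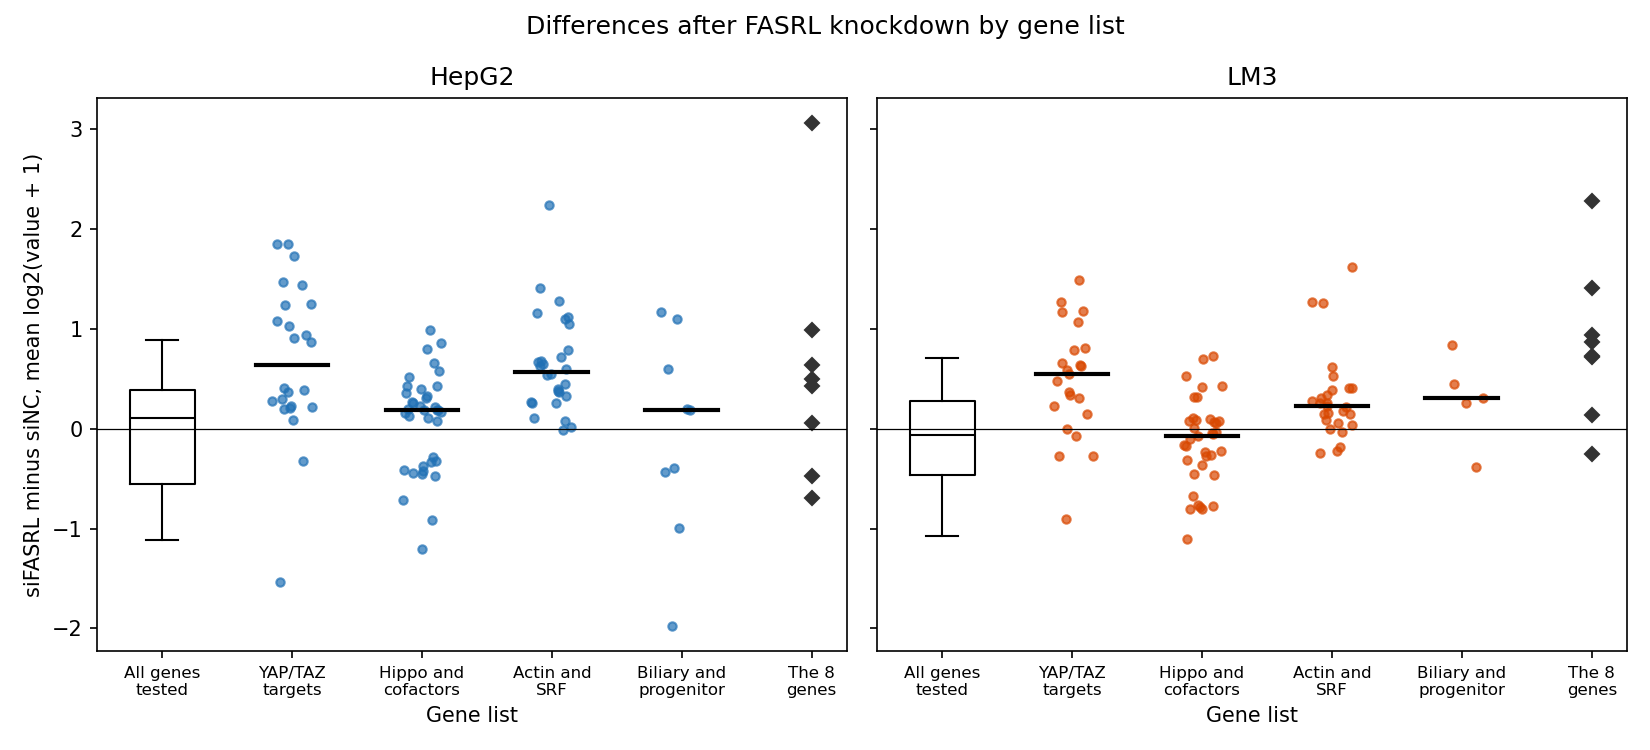
Differences after knockdown (mean log2(value + 1), siFASRL minus siNC) for all genes tested (box with quartiles, whiskers at the 5th and 95th percentiles), genes of each list (points, black line at the median) and the 8 genes (diamonds), in HepG2 and LM3. The median of further YAP/TAZ targets lies at 0.64 and 0.54, that of the Hippo genes at 0.19 and -0.08, the latter turning to 0.04 with median-of-ratios scaling.

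Upstream Hippo components were counted next. Of 55 Hippo pathway and cofactor genes, 39 were listed and 37 tested, of which 22 rose and 12 fell in HepG2, beside 44.8% and 44.3% of all genes, with a median of 0.19. In LM3 7 rose and 16 fell, beside 33.9% and 43.5%, with a median of -0.08. The LM3 counts depend on scaling. After median-of-ratios scaling 14 were higher and 13 lower, beside 42% and 36.9% of all genes, with a median of 0.04 beside 0.05. After quantile normalization 10 were higher and 17 lower, beside 37.6% and 34.5%, with a median of -0.13. In both lines 1 gene passed the threshold of 1, LLGL2, a cell polarity gene of the Scribble complex. Of all genes, 3.61% passed it upward and 6.79% downward in HepG2, and 1.42% and 6.2% in LM3. With a pseudocount of 0.1 the counts were 3 in HepG2 and 2 in LM3. The HepG2 count was also 3 without HepG2 siFASRL replicate 2, and 2 with quantile normalization or without HepG2 siNC replicate 2. LLGL2 fell by 1.21 in HepG2 (SE 0.0873, limma adjusted p = 1.33e-06) and by 1.11 in LM3 (SE 0.0893, limma adjusted p = 8.58e-06), without overlap of the libraries. With median-of-ratios scaling its LM3 value was -0.99, short of that threshold. The effect was lower in LM3 for 16 of 37 genes and higher for 1, beside 27.5% and 15% of genes tested in both lines, and after median-of-ratios scaling it was lower for 9 and higher for 2, beside 21.2% and 20.1%. Between the siNC groups 18 were higher in LM3 and 15 lower, beside 40.4% and 40.6% of all genes.

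Genes of the actin cytoskeleton and of serum response factor (SRF), whose cofactors respond to actin and share many targets with YAP, were counted as a related program. Of 35 genes 28 were listed, and in HepG2 24 of 28 tested rose, beside 44.8% of all genes, and the other 4 did not pass the test, with a median of 0.57. In LM3 18 of 27 rose and 3 fell, beside 33.9% and 43.5% of all genes, with a median of 0.23. The LM3 count depends on scaling, with 21 higher under the median of ratios, beside 42% of all genes. Under quantile normalization 9 were higher and 3 lower, where 37.6% of all genes were higher and 34.5% lower. Tropomyosin 4 (TPM4), an actin filament protein, led with means of 75.0 ± 6.74 and 359 ± 20.6 in HepG2 siNC and siFASRL and 137 ± 15.2 and 423 ± 10.1 in LM3 (SD, n = 3), or 2.24 and 1.62 on the log2 scale (limma adjusted p = 2.85e-08 and 7.27e-07). RHOB, a small GTPase, rose by 1.41 and 1.26 (limma adjusted p = 1.75e-06 and 3.09e-06) and FHL2, a LIM cofactor, by 1.28 and 1.27 (limma adjusted p = 1.69e-06 and 8.53e-06).

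TPM1 (1.16 and 0.16), FHL1 (1.12 and 0.38), TAGLN (1.09 and 0.52) and MYH9 (1.04 and 0.33), which encodes nonmuscle myosin heavy chain, rose in both lines in limma and passed the threshold of 1 in HepG2 only, and the effects differed between lines (limma adjusted p = 1.2e-07, 3.01e-05, 0.000142 and 2.18e-05). After quantile normalization TPM1 no longer passed in LM3 (0.03, limma adjusted p = 0.594), MYH9 in HepG2 was at 0.93, and TAGLN in LM3 was at 0.95. Of the 27 tested in both lines the effect was lower in LM3 for 13 and higher for 0, beside 27.5% and 15% of genes. In the siNC comparison 15 were higher in LM3 and 6 lower, beside 40.4% and 40.6%. The lower genes include ACTA2 (LM3 siNC mean 0.41), which passed the filter through HepG2 only and could only come out lower.

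Biliary and progenitor genes were included because YAP promotes that fate in liver. Of 10 genes 9 were listed, and in HepG2 4 rose and 4 fell, beside 44.8% and 44.3% of all genes, with a median of 0.19. In LM3 4 of 5 tested rose, beside 33.9% of all genes, and 1 fell, EPCAM (-0.39, limma adjusted p = 0.00108), named after its values were seen, which did not pass after quantile normalization (-0.11, limma adjusted p = 0.205). Keratin 7 (KRT7), a bile duct keratin, rose from 338 ± 12.8 to 761 ± 13.7 in HepG2 and from 199.7 ± 14.8 to 357 ± 6.22 in LM3 (SD, n = 3, limma adjusted p = 1.22e-07 and 6.07e-06), or by 1.17 and 0.84 on the log2 scale (0.94 in HepG2 after quantile normalization). Keratin 19 (KRT19) rose by 1.10 in HepG2 (limma adjusted p = 1.4e-05), and SPP1, which encodes osteopontin, fell by 1.98 (limma adjusted p = 2.73e-08), while in LM3 they had siNC means of 0.36 and 0.147 and were not tested. Between the siNC groups 8 of 9 were lower in LM3, beside 40.6% of all genes, with a median of -2.35 beside 0.00. Of these, SOX9, KRT19, SPP1 and PROM1 had LM3 siNC means of 0.513, 0.36, 0.147 and 0.117. They passed the filter through HepG2 only and could only come out lower, so nothing is read from this count.

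The profiles of the genes across the 12 libraries were compared as a description. Genes averaging 5 or more entered this comparison. The libraries form 4 groups of 3, so a high correlation mainly means a like order of 4 group means. Between pairs of the 8 genes Pearson's r of log2(value + 1) ranged from -0.965 (YAP1 and TEAD1) to 0.925 (ANKRD1 and YAP1), with a median of 0.352 over 28 pairs. The genes therefore did not share a single profile. Of 6320 genes compared, those most like CYR61 were RND3 (r = 0.997), RAPGEF2 (0.994), MBP (0.994), NR4A3 (0.994) and RPL7L1 (0.993). Those most like CTGF were SLC25A33 (0.989), B3GAT3 (0.986), SLC5A6 (0.960), LGALS8 (0.959) and GAPDH (0.958). Those most like YAP1 were DDX60 (0.999), RNASE4 (0.998), GBE1 (0.998), CEP126 (0.998) and VIL1 (0.998).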

How the data were processed

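RNA-seq was measured in 12 libraries, 3 for each of HepG2 siNC, HepG2 siFASRL, LM3 siNC and LM3 siFASRL. The authors enriched mRNA with oligo(dT), sequenced it on a BGISEQ-500, filtered reads with SOAPnuke (1.5.2), mapped them with HISAT2 (2.0.4), aligned them to coding genes with Bowtie2 (2.2.5) and computed values per gene with RSEM (1.2.12). The deposited values were treated as a normalized score per gene, with FPKM or TPM not stated; depth is unknown. The labels name hg19, whereas chromosome names in the tables are those of GRCh38, so coordinates were taken from RefSeq (GRCh38.p14), which held 8790 of the 8842 gene identifiers, with CYR61 and CTGF under their older symbols. Gene symbols that had become dates (17) were restored, and 6 columns that belong to other libraries were not used. The authors' own comparisons were not used.

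Differences were computed with limma (3.58.1, R 4.3.3) on log2(value + 1), leaving out genes that reached 1 in fewer than 3 libraries of the fit, with Benjamini-Hochberg adjustment over all genes tested. Each contrast was fitted on its own libraries and the interaction on all 12. A count test had been planned should read counts be given. The threshold was an adjusted p under 0.05 together with an absolute log2 difference of 1 or more. The fits were run on simulated data in which every planted log2 difference was larger than 1 in size. That check does not cover smaller differences or genes of low value. Replicates correlated with r between 0.9954 and 0.9989 on the log2 scale across genes.

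The 10 genes and the gene lists were chosen with earlier results of these data known. From each list, every gene past the threshold in either line was named, up to 12 by mean absolute change (13 YAP/TAZ targets qualified, and 1 of the 12 is not reported here), with all paralogs and, for CYR61, CTGF and YAP1, the 5 genes of highest r. Promoters came from RefSeq (entries for 8 of the 10 genes), UTR and antisense exons from GENCODE v29. Alternatives were the pseudocount, the filter, scaling, the replicate block, a joint fit and leaving out each replicate. Figures used matplotlib (3.10.9) and pandas (2.3.3) in Python (3.11.15).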

Additional observations from a re-analysis of the deposited data

Results flagged for a closer look

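The knockdown effect differed between LM3 and HepG2, by the interaction of line and siRNA in limma, for 17 of 25 list genes and paralogs that are named above and passed the filter in both lines. Of 7349 genes tested in both lines, 27.5% had a lower effect in LM3 and 15% a higher one. Most of the named genes were picked for passing the threshold in either line and some for going opposite ways, which favors a difference between the lines, so their count is not set against those shares. AREG, SPP1, KRT19 and AMOT were too low in LM3 and are left out. Values are the LM3 effect minus the HepG2 effect on the log2 scale. Among YAP/TAZ targets, the effect was smaller in LM3 for F3 (-1.54, limma adjusted p = 1.03e-07), NT5E (-0.93, 1.97e-05), FSTL1 (-0.90, 2.82e-07), IGFBP3 (-0.88, 7.35e-06), TGFB2 (-0.58, 2.89e-05) and EDN1 (-0.44, 0.00508). It was larger in LM3 for NUAK2 (0.35, limma adjusted p = 0.00918), which did not pass after quantile normalization (0.07, 0.617). Of the 23 targets tested in both lines, named or not, the effect was higher in LM3 for 4 and lower for 10. The 4 include targets that are not named here. DKK1 (2.02, limma adjusted p = 1.2e-09), CCDC80 (-1.28, 1.07e-06) and PTPN14 (-0.55, 3.67e-05) went in opposite directions.

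Among actin genes the effect was smaller in LM3 for TPM1 (-1.0, limma adjusted p = 1.2e-07), FHL1 (-0.74, 3.01e-05), MYH9 (-0.71, 2.18e-05), TPM4 (-0.62, 0.00071) and TAGLN (-0.57, 0.000142). Among biliary genes it was smaller in LM3 for KRT7 (-0.33, limma adjusted p = 0.0043) and EPCAM, which fell (0.61, 0.000115).

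CTGF was lower in every HepG2 siFASRL library and higher in every LM3 siFASRL library than in the matching siNC libraries, with effects 1.63 apart on the log2 scale. This difference was not tested.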

How the results depend on the processing

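Across every alternative run, CYR61, CTGF, AMOTL2, AJUBA, LATS2, YAP1 and TEAD1 kept the direction of their knockdown difference in both lines, with CYR61 between 3.03 and 3.10 in HepG2 and 2.23 and 2.40 in LM3, YAP1 between -0.28 and -0.14 in LM3, and TEAD1 between 0.05 and 0.26 in LM3. ANKRD1 in HepG2 changed sign with quantile normalization (-0.0522), and leaving out each replicate moved it between -0.0288 (without HepG2 siNC replicate 3) and 0.1052. The siNC difference of LATS2 changed sign without HepG2 siNC replicate 3 (-0.0015), was at most 0.0991 without another replicate, and was 0.205 with quantile normalization. The cause was not tested.

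With a pseudocount of 0.1 the genes past the threshold numbered 1373 in HepG2 (847 with 1), 900 in LM3 (570) and 664 for the difference of effects (401), since a smaller pseudocount enlarges differences of low values. Hippo pathway genes past it numbered 3 in HepG2 and 2 in LM3 (1 each with a pseudocount of 1). That count was 2 in HepG2 with quantile normalization and 0 in LM3 with median-of-ratios scaling, where LLGL2 was at -0.99. Leaving out each replicate gave 766 to 871 genes in HepG2, 485 to 577 in LM3, 1339 to 1863 between the siNC groups (1911 with all) and 367 to 408 for the difference of effects. Fewer genes pass the filter without a HepG2 siNC replicate. The Hippo count in HepG2 was 1 to 3 and reached 3 without HepG2 siFASRL replicate 2 and 2 without HepG2 siNC replicate 2.

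Labels share replicate numbers 1 to 3, but same-numbered libraries deviated together only in part (r = 0.38, 0.438 and -0.249 in HepG2, -0.079, 0.167 and -0.217 in LM3, 0.54, 0.645 and -0.351 between siNC groups of the lines), so the main fit has no pairing. With the replicate block the counts past the threshold were 847, 570, 1911 and 401, as without it, while by adjusted p under 0.05 alone 7356 were called in HepG2 and 5691 in LM3 (7257 and 5790 without it). No detection limit can be given without depth.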
